A study of Mus musculus with 4 samples.

Results

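The 10 genes described here encode chaperones and folding enzymes of the endoplasmic reticulum (ER) and regulators of the unfolded protein response. They are Hspa5, Hsp90b1, Calr, Pdia4, Pdia6, Hyou1, Sdf2l1, Herpud1, Xbp1 and Ddit3. They were chosen by symbol, and all 10 were found among the 23282 gene rows of each of 4 lung libraries. Each library stands for 1 group of CDF1 mice, a strain used here as host for CT26 murine colorectal carcinoma cells. A resting lung without tumor is E(-)T(-), the normal control, and one with tumor E(-)T(+), the cancer control. Lungs after treadmill running are E(+)T(-), normal exercise, and E(+)T(+), cancer exercise. Mice of the T(+) groups received CT26 cells by tail vein, so the tumor cells reach the lung through the blood, and mice of the E(+) groups ran at high intensity every second day. The study kept 10 male mice per group. The labels give postnatal day 28 as the age, which the methods give as the age at purchase. The study names a representative mouse of each group as the source of calf muscle and speaks of a similar analysis of lung. It does not say whether a lung library holds 1 mouse or a pool. With 1 library per group there is no replicate error, no test between groups was possible, and every interval given covers counting error alone.

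Secreted and membrane proteins are folded in the ER. Hspa5 (BiP) is the Hsp70 chaperone of this compartment, Hsp90b1 (GRP94) its Hsp90 chaperone, and Calr a lectin chaperone that binds glycoproteins. When unfolded proteins accumulate, the sensors IRE1 (gene Ern1), PERK (gene Eif2ak3) and ATF6 are released from BiP and start the unfolded protein response. IRE1 splices the mRNA of Xbp1, PERK slows translation and favours Atf4 and its target Ddit3 (CHOP), and ATF6 is cut to a transcription factor. ATF6 and spliced XBP1 act on chaperone genes through promoter elements, the best known of which is the ER stress response element. In the lung, alveolar type 2 cells, club cells and plasma cells are secretory cells with much ER.

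Promoter letters are shown first, because the ER stress response element is the feature by which many of these genes are known to be regulated together. The windows run from 250 bases before to 50 bases after the start of the gene and come from RefSeq (build GRCm38.p6). A window was found for 9 of the 10 genes, all but Hyou1. The element was searched on both strands as CCAAT and CCACG with any 9 bases between them. It was found in 4 of these 9 windows, those of Hspa5, Hsp90b1, Calr and Pdia6, and in 0.119% of all 32851 promoter windows. It was also found for 4 of 27 other ER folding genes (Canx, Creld2, Dnajc3 and Ero1b) and for 2 of 34 genes of ER-associated degradation and translocation (Derl3 and Syvn1). Capitals mark the match, which reads in reverse complement in Calr and in the second match of Hsp90b1.
Hspa5, chr2:34771840-34772139, plus strand: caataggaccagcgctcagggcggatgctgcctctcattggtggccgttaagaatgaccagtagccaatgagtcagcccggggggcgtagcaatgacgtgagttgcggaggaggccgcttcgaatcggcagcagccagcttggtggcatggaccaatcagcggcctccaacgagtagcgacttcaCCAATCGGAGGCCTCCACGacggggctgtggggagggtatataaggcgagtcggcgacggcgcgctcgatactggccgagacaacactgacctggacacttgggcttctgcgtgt
Hsp90b1, chr10:86705395-86705694, minus strand: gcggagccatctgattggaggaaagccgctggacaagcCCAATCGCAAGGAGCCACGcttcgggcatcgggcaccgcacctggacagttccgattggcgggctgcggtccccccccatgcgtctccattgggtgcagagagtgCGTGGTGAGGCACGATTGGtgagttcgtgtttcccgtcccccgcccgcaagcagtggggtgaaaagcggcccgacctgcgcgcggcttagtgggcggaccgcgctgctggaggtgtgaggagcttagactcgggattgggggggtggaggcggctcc
Calr, chr8:84846882-84847181, minus strand: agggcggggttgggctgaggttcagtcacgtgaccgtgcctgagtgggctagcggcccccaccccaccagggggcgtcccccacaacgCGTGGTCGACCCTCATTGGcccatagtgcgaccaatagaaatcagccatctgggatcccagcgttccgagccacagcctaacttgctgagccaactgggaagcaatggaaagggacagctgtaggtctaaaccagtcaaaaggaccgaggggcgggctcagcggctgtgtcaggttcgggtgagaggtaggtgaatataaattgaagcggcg
Pdia6, chr12:17266339-17266638, plus strand: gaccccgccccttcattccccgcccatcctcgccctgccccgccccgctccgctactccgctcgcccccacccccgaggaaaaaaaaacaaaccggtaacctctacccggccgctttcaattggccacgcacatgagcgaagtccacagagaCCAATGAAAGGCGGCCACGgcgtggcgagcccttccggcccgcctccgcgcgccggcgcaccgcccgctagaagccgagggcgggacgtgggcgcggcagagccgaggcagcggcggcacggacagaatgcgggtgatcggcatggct

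Positions are counted from the RefSeq start, which in Hspa5, Hsp90b1 and Pdia6 lies 120, 65 and 44 bases inside the gene as GENCODE gives it below. In Hspa5 the match spans 65 to 47 bases before the start, and in Pdia6 it spans 98 to 80 bases before. Hsp90b1 held a pair of matches, at 212 to 194 and at 107 to 89 bases before the start. In Calr the match lay at 162 to 144 bases. A shorter form, ATTGG and CCACG with any 1 base between them, was searched on both strands after the letters had been seen. It was found at 52 to 42 bases before the start of Herpud1 and in 0.0365% of all windows. Its capitals show the same building blocks, closer together and with the first in the other orientation.
Herpud1, chr8:94386179-94386478, plus strand: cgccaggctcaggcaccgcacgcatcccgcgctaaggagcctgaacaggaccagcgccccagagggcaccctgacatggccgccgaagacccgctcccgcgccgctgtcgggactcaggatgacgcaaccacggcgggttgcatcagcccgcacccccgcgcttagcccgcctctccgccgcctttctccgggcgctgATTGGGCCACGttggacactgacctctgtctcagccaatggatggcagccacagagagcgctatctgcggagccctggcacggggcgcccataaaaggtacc

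The windows of Pdia4, Sdf2l1, Xbp1 and Ddit3 held neither form. The letters TGACGTGG (unfolded protein response element), TGATGNAAT (a composite element of C/EBP and ATF factors) and the heat shock element (GAA, TTC and GAA, each parted by 2 bases) were also searched on both strands. They were found in 0 of the 9 windows, and in 0.676%, 0.965% and 0.603% of all windows. These matches describe letters in a 300-base window and were not tested as sites.

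The genes lie on different chromosomes except for a few pairs. In GENCODE M21 on the same build, Hspa5 spans chr2:34771970-34777547, Hsp90b1 chr10:86690209-86705509, Calr chr8:84841850-84846934 and Pdia6 chr12:17266545-17284770. Herpud1 spans chr8:94386438-94395377, Ddit3 chr10:127290774-127296288, Xbp1 chr11:5520659-5525893 and Hyou1 chr9:44379490-44392369. Pdia4 lies at chr6:47796141-47813430 and Sdf2l1 at chr16:17130138-17132383. At its last bases Ddit3 overlaps Mars on the other strand by 68 bases, and Pdia6 overlaps Atp6v1c2 by 50 bases. The gene model 1810014B01Rik covers the end of Hsp90b1 on the other strand. Since the reads mark transcript ends and the use of strand in counting was not stated, reads of these pairs may be shared. Mars had 597, 989, 576 and 535 reads in the order normal control, normal exercise, cancer control, cancer exercise, which is kept for all values below. Atp6v1c2 had 472, 337, 43 and 313 reads, and 1810014B01Rik had 49, 48, 44 and 18.

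The libraries held 9354470 to 13367992 reads on genes. The libraries differ in makeup. Hemoglobin genes held 14.3%, 14.2%, 1.43% and 31.4% of the reads. The 7 alveolar epithelial markers, all with reads in every library, summed to 222451, 271015, 32671 and 182263 normalized counts, so that lung identity was present throughout and lowest in E(-)T(+). Carcinoma-associated Crabp1 and Krt20, known as such from earlier results of these data, had 141 and 46 reads in the library labelled E(+)T(-) and none in E(-)T(-). Their part in the results was not tested. In tissue RNA, fewer cells of a type and less RNA per cell cannot be told apart.

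The level used here is the deposited log2(normalized read count + 1), and a log2 difference of 1 is 2-fold. All 10 genes were well measured, with mean normalized counts from 266 (Sdf2l1) to 10515 (Hspa5), and all passed the filter of a mean normalized count of 4 that 15164 rows passed. Summed over the 10 genes, normalized counts were 24139, 37809, 28462 and 24519. E(+)T(-) gave the highest sum, and the highest single level for 8 of the 10 genes. It was the highest of the 4 libraries for 19.7% of all 15164 rows. Under library totals alone the count was 5, with Hspa5, Pdia4 and Pdia6 highest in E(-)T(+), beside 17.0% of all rows.

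**Figure D1:**
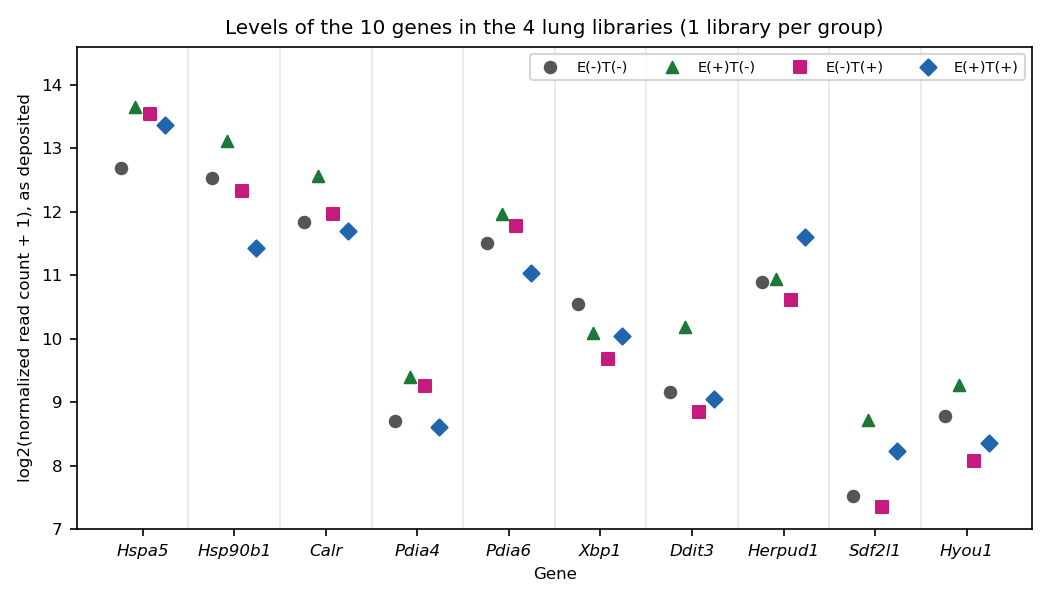
Levels of the 10 genes as deposited log2(normalized read count + 1), 1 point per library and group. E(+)T(-), the green triangles, is the highest library for 8 genes, whereas Xbp1 is highest in E(-)T(-) and Herpud1 in E(+)T(+).

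Among the chaperones, Hspa5 was lowest in the untreated resting lung and higher in each of the other libraries. Its levels were 12.70, 13.65, 13.54 and 13.37 on 7818, 14031, 10869 and 9080 reads. The 3 libraries with exercise, tumor or both lay within 0.28 of each other, and stood 0.68 to 0.96 above E(-)T(-). Under library totals alone they stood 0.87, 0.95 and 0.18 above it, so that the level of E(+)T(+) depends on the scaling. Exercise without tumor gave a 1.94-fold higher level (log2 difference 0.96, 95% exact interval of the read ratio 0.92 to 0.996), and tumor without exercise a 1.79-fold higher one (0.84, 0.80 to 0.88). These comparisons share the E(-)T(-) library.

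Hsp90b1, by contrast, was lowest where exercise and tumor came together. Its levels were 12.53, 13.12, 12.33 and 11.44 on 6959, 9717, 4704 and 2371 reads. The E(+)T(-) library stood above all others and E(+)T(+) below all others, with the resting libraries between them. The tumor effect with exercise was the largest difference found for any of the 10 genes in the 4 comparisons, 3.22-fold lower (log2 difference -1.69, -1.75 to -1.62). Calr showed the same highest and lowest libraries in a narrower range, at 11.84, 12.56, 11.97 and 11.70 on 4301, 6577, 3650 and 2835 reads. It was 1.65-fold higher with exercise in lung labelled T(-) (0.72, 0.67 to 0.78).

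Shares within a library do not depend on how libraries are scaled to each other. Of the reads of the 10 genes, Hspa5 held 27.5%, 34.1%, 41.8% and 43.3%. Hsp90b1 held 24.5%, 23.6%, 18.1% and 11.3%. The chaperones of the Hsp70 and Hsp90 families therefore did not keep a fixed ratio across the 4 libraries.

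Pdia4 and Pdia6 are disulfide isomerases, which form and rearrange disulfide bonds. Pdia4 had levels of 8.70, 9.40, 9.25 and 8.62 on 489, 732, 555 and 335 reads. Its E(+)T(-) and E(-)T(+) libraries did not differ beyond counting error (0.14, -0.02 to 0.31), nor did E(-)T(-) and E(+)T(+) (0.08, -0.12 to 0.29). The latter depends on the scaling. E(+)T(+) minus E(-)T(-) was -0.58 under library totals alone and -0.26 by totals without hemoglobin genes. Pdia6 had the same order at 11.51, 11.97, 11.78 and 11.04 on 3440, 4363, 3206 and 1795 reads, and here each step exceeded counting error. Both genes were thus higher with either exercise or tumor alone than with neither or both.

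Hyou1 (GRP170), a large chaperone that also exchanges the nucleotide of BiP, had levels of 8.78, 9.27, 8.08 and 8.36 on 516, 672, 246 and 280 reads. Both tumor libraries lay below both labelled T(-), which set it apart from Hspa5. The tumor effect was 1.62-fold lower at rest (-0.70, -0.93 to -0.48) and 1.88-fold lower with exercise (-0.91, -1.12 to -0.71). Sdf2l1, a partner of ER-resident DnaJ cochaperones, had levels of 7.52, 8.72, 7.34 and 8.23 on 215, 459, 147 and 256 reads. It was higher in both exercised libraries than in both resting ones. Exercise gave 2.30-fold without tumor (1.203, 0.97 to 1.45) and 1.85-fold with tumor (0.89, 0.60 to 1.20).

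Herpud1 encodes a membrane protein of ER-associated degradation, the route by which misfolded proteins leave the ER. Its levels were 10.89, 10.95, 10.62 and 11.61 on 2234, 2149, 1430 and 2665 reads. Here E(+)T(+) stood alone at the top, and the libraries labelled T(-) did not differ beyond counting error (0.06, -0.03 to 0.14). Exercise with tumor gave a 1.99-fold higher level (0.99, 0.90 to 1.09), just inside the 2-fold limit. Under library totals alone this difference was 0.38, and that of Sdf2l1 was 0.28.

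Of the transcription factors, Xbp1 was the 1 gene of the 10 that was lower with exercise in lung labelled T(-). Its levels were 10.55, 10.09, 9.68 and 10.05 on 1759, 1189, 747 and 904 reads. The untreated resting lung was highest and the resting tumor lung lowest, while the exercised libraries did not differ beyond counting error (-0.05, -0.17 to 0.08, tumor effect with exercise). Under library totals alone E(+)T(+) was lowest instead, and that difference was -0.46. The spliced and unspliced forms of Xbp1 cannot be separated in reads of transcript ends. Markers listed for plasma cells, in which Xbp1 is known to be high, summed over 7 genes to 1704, 1613, 938 and 2886 normalized counts. Single markers differed in direction. With exercise 2 were higher and 5 lower in lung labelled T(-), and 6 were higher and 1 lower in tumor-bearing lung. Derl3 is among them and also stands in the list of ER-associated degradation and translocation below. None of the 7 was at 0 in any library, and their part in the Xbp1 levels was not tested.

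Ddit3, the factor that PERK signalling is known to raise, had levels of 9.17, 10.19, 8.85 and 9.04 on 675, 1269, 419 and 451 reads. E(+)T(-) stood above the other libraries, at 2.03-fold over E(-)T(-) (1.02, 0.89 to 1.16). With exercise, the tumor library was 2.21-fold lower (-1.14, -1.30 to -0.99). Its neighbour Mars was also highest in E(+)T(-), as given above, and whether the genes share reads was not tested.

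The first comparison addressed what exercise changed in lung labelled without tumor. Of the 10 genes, 9 were higher in E(+)T(-) and 1, Xbp1, was lower, where 49.4% of all rows were lower. The median log2 difference was 0.64 against 0.00 over all rows. Past 2-fold were 2 genes, Sdf2l1 and Ddit3, both higher. Ddit3 was under 2-fold by library totals alone (0.94) and by totals without hemoglobin genes (0.93). In the same pair of libraries neutrophil markers summed to 3696 and 11205 normalized counts and cell division markers to 310.3 and 655, and their part in the result was not tested. Of all rows, 9.98% passed 2-fold in either direction and 5.28% were higher by 2-fold. At 1.5-fold, 6 of the 10 were higher, against 11.1% of all rows. The shares were also taken over the 9396 rows whose mean normalized count reached 100, as it did for all 10 genes. They were then 1.68% at 2-fold and 5.64% at 1.5-fold, both for higher rows. The Herpud1 difference of 0.06 was within counting error, and it became -0.03 under library totals alone or totals without hemoglobin genes.

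Crabp1 and Krt20 are called carcinoma-associated from earlier results of these same data. The source of their reads in the library labelled E(+)T(-) was not tested. Krt20 stood there at 1.43% of its E(-)T(+) level and Crabp1 at 1.13%, and at 7.58% and 29.0% of their E(+)T(+) levels. Subtracting 1.43% of the cancer control level from normal exercise, a step chosen after the data had been seen, changes the 10 differences by at most 0.02. That size follows from the share taken, since the 10 genes had levels of similar size in both libraries, and the step tests nothing. The larger shares of the E(+)T(+) level were not subtracted.

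**Figure D2:**
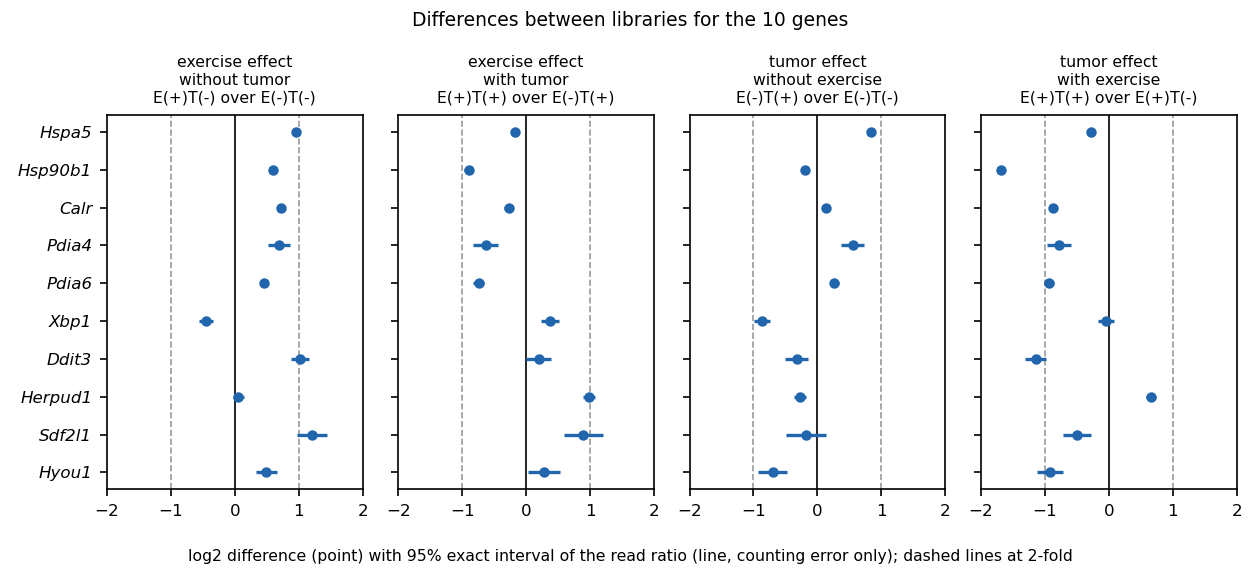
Log2 differences of the 10 genes in the 4 comparisons (points) with the 95% exact interval of the read ratio (lines, counting error only) and dashed lines at 2-fold. The first panel holds 9 points right of 0, the last panel 9 points left of 0, and the remaining panels scatter on both sides.

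The tumor effect without exercise asked what the cancer changed in resting lung. Within the limit of 2-fold lay all 10 genes, in a comparison in which 46.2% of all rows passed it. Higher in E(-)T(+) were 4 genes, Hspa5, Pdia4, Pdia6 and Calr, by 0.84, 0.55, 0.26 and 0.13, as were 48.9% of all rows. The other 6 were lower, with Xbp1 (-0.87) and Hyou1 (-0.70) the furthest. In the same pair of libraries all 7 alveolar epithelial (median -2.39), all 4 endothelial (median -2.56) and all 8 erythroid markers (median -3.40) were lower by 2-fold. Higher by 2-fold were all 6 cell division markers (median 5.09), 6 of 7 neutrophil markers (median 1.69) and 4 of 5 fibroblast markers (median 1.37), and their part in the result was not tested. The median of the 10 was -0.19 against -0.03 over all rows. The Sdf2l1 difference of -0.18 was within counting error (-0.49 to 0.13).

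The exercise effect with tumor asked what exercise changed in cancer-bearing lung. Again 0 of the 10 genes passed 2-fold, where 42.0% of all rows did, and the genes divided evenly, 5 higher and 5 lower. Under library totals alone 3 passed 2-fold, beside 51.8% of all rows. In the same pair of libraries all 7 alveolar epithelial (median 2.48) and all 4 endothelial markers (median 3.14) were higher by 2-fold. So were all 8 erythroid markers (median 5.14) and 6 of 7 neutrophil markers (median 4.18). The remaining neutrophil marker was lower by 2-fold (-1.40), as were 5 of 6 cell division markers (median -1.79). The part of all these markers in the result was not tested. Of all rows 49.7% were lower. Lower in E(+)T(+) were 5 genes, Hsp90b1 (-0.90, -0.97 to -0.82), Pdia6 (-0.74, -0.83 to -0.66), Pdia4 (-0.63, -0.83 to -0.44), Calr (-0.27, -0.34 to -0.20) and Hspa5 (-0.17, -0.21 to -0.13). Higher were Herpud1 and Sdf2l1, given above, and by smaller amounts Xbp1 (0.37), Hyou1 (0.28) and Ddit3 (0.20). The directions of Xbp1, Hyou1 and Ddit3 turned under library totals alone, to -0.24, -0.33 and -0.41. That scaling moved the median of all rows by itself to -0.59, and relative to that median they stayed at 0.35, 0.27 and 0.19. By totals without hemoglobin genes, which held 1.43% and 31.4% of the reads in these libraries, the median of all rows was -0.08 and the values were 0.28, 0.20 and 0.11.

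The tumor effect with exercise asked what the cancer changed in exercised lung. All genes but Herpud1 were lower in E(+)T(+), 9 of the 10, where 50.1% of all rows were, with a median of -0.82 against 0.00 over all rows. In the same pair of libraries all 7 neutrophil markers (median 4.24), all 8 erythroid symbols (median 1.62) and all 6 cell division markers (median 2.33) were higher by 2-fold, and their part in the result was not tested. Past 2-fold were Hsp90b1 and Ddit3, both lower, where 27.9% of all rows passed in either direction and 13.0% were lower by 2-fold. Library totals alone gave 6 genes past 2-fold, beside 33.7% of all rows, and totals without hemoglobin genes gave 4, beside 28.7%. At 1.5-fold 6 of the 10 were lower, against 24.6% of all rows. Over rows reaching a mean of 100, 8.14% were lower by 2-fold and 20.3% by 1.5-fold. This comparison shares E(+)T(-) with the exercise effect without tumor.

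**Figure D3:**
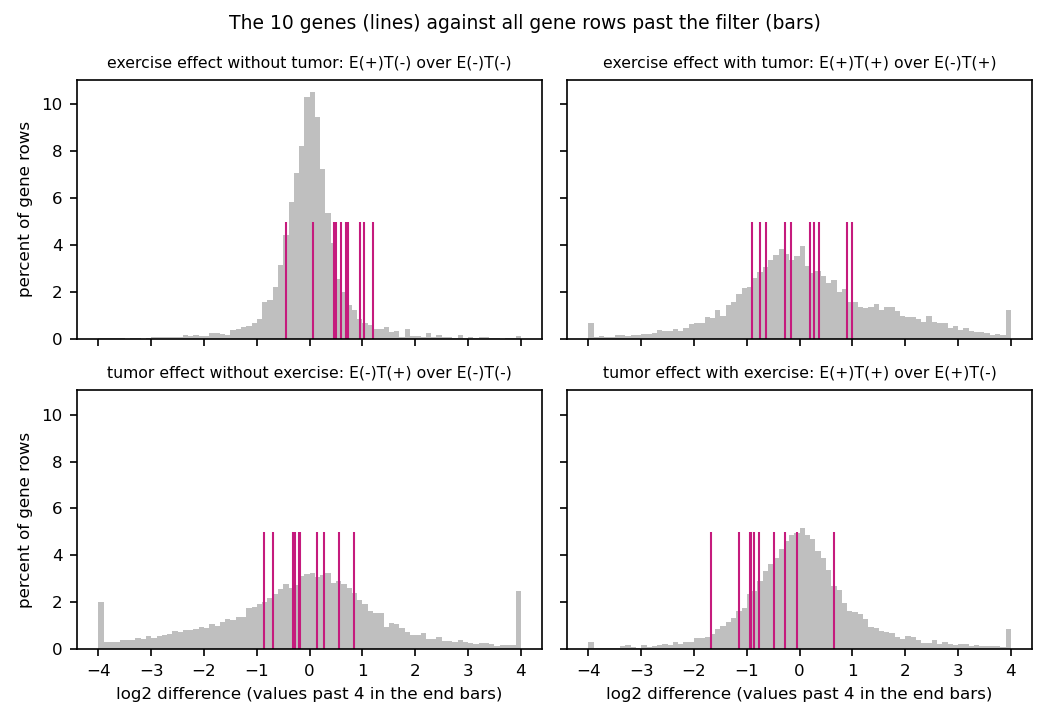
Log2 differences of all 15164 rows past the filter (bars, percent of rows in steps of 0.1) and of the 10 genes (lines, whose height carries no value). In the exercise effect without tumor 6 lines lie past 1.5-fold on the right, where 11.1% of the rows lie, whereas in the resting tumor comparison all lines lie inside the wide bulk.

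The exercise effects with and without tumor come from separate pairs of libraries, and their difference was computed for each gene without a test. It was negative, a lower exercise effect with tumor, for 8 of the 10 genes and for 49.5% of all rows. It reached -1 or beyond for 4 of the 10, against 18.9% of all rows. Under library totals alone that count was 6, against 33.2% of all rows. The values were -1.49 for Hsp90b1 (-1.57 to -1.41, from counting error), -1.33 for Pdia4 (-1.58 to -1.07), -1.198 for Pdia6 (-1.30 to -1.09) and -1.12 for Hspa5 (-1.18 to -1.07). Calr stood at -0.996. Higher with exercise in lung labelled T(-) and lower in tumor-bearing lung, at any size, were 5 of the 10 genes, against 24.9% of all rows. Sdf2l1 (-0.31, -0.69 to 0.06) and Hyou1 (-0.21, -0.51 to 0.08) had intervals that included 0. Herpud1 (0.93) and Xbp1 (0.82) went the other way.

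The 4 genes whose printed window holds the ER stress response element were all higher with exercise in lung labelled T(-), at 0.46 to 0.96, and lower with exercise in tumor-bearing lung, at -0.17 to -0.90. Such a pattern, at any size, was seen in 24.9% of all rows. Pdia4 did the same without a match. Other genes with the element were read the same way. Of 37 genes with a match in all windows, 30 were found in the files, and 15 of these other than the 4 passed the filter. Without tumor, 5 of these 15 were higher with exercise and 10 lower, with a median of -0.07, where 49.4% of all rows were lower. With tumor 9 were higher and 5 lower, where 49.7% of all rows were lower.

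Further genes of the ER were read from lists written with earlier results of these data known. Of 31 other ER folding genes, 30 passed the filter. With exercise in lung labelled T(-) 17 were higher and 13 lower, with a median of 0.07, and 1 passed 2-fold, against 9.98% of all rows. That gene was Ero1lb, an oxidase that renews disulfide bonds, which was lower (-1.01, -1.59 to -0.50) on 95 and 43 reads. Among the promoter windows above it is named Ero1b, with a match to the ER stress response element.

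With tumor at rest 5 of the 30 folding genes were higher and 4 lower by 2-fold, where 20.6% of all rows were higher and 25.7% lower. Highest were Fkbp11, a prolyl isomerase (1.71), and Ero1l (1.24), and lowest were Pdia5 (-2.12) and Fkbp14 (-1.79). With exercise in tumor-bearing lung 4 of the 30 were higher and 3 lower by 2-fold, where 24.3% of all rows were higher and 17.7% lower. Among them were Fkbp14 (2.43), Txndc11 (1.54), Serpinh1 (-1.90) and Fkbp11 (-1.69). Serpinh1, the collagen chaperone, had levels of 10.45, 11.30, 11.49 and 9.59. The 5 fibroblast markers summed to 9532, 9422, 36498 and 14462 normalized counts, and their part in the Serpinh1 levels was not tested. In the tumor effect with exercise, Serpinh1 (-1.72) and the ER DnaJ cochaperone Dnajb9 (-1.02) passed 2-fold, 2 of the 30 genes, against 27.9% of all rows.

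The list of ER-associated degradation and translocation held 41 genes, all past the filter. With exercise in lung labelled T(-) 0 of them passed 2-fold, against 9.98% of all rows, and the median was 0.07. With tumor at rest 7 of the 41 were higher and 1 lower by 2-fold, against 46.2% of all rows in either direction, with a median of 0.29 beside -0.03 over all rows. The translocon subunit Sec61a1 was higher by 1.68 on 2122 and 5293 reads, and Ssr3, of the translocon-associated complex, by 1.28. With exercise in tumor-bearing lung 2 of the 41 passed 2-fold, against 42.0% of all rows. The signal peptidase subunit Spcs3 was lower by 2.38 on the log2 scale, and Derl3, below the level set for naming, was higher on 1 and 21 reads. In the tumor effect with exercise 1 was higher and 2 lower by 2-fold, against 27.9% of all rows in either direction, the lower ones being Spcs3 (-1.08) and Srp14 of the signal recognition particle (-1.08).

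In the deposited values, the mRNAs of the sensors Atf6 and Eif2ak3 stayed within 1.5-fold over the 4 libraries. Atf6 had levels of 8.51, 8.66, 9.07 and 8.82, and Eif2ak3 had 149, 146, 147 and 107 reads. This depends on the scaling for Eif2ak3, whose 147 and 107 reads in E(-)T(+) and E(+)T(+) came from 9354470 and 13367992 reads on genes. Ern1 had only 15, 13, 19 and 30 reads, and its intervals included 0 in each comparison but the tumor effect with exercise (1.48, 0.57 to 2.62). Their activity is set by protein modification and is not read from mRNA. Atf4, of the PERK branch, had levels of 11.13, 12.24, 11.60 and 12.21, higher in both exercised libraries than in both resting ones. Exercise gave 1.11 without tumor (1.05 to 1.18) and 0.61 with tumor (0.54 to 0.68). Atf3, a stress-induced factor downstream of it, had 66, 172, 55 and 627 reads and was higher with exercise by 1.48 without tumor and by 3.58 with tumor. The Atf4 difference with tumor depends on the scaling. Library totals alone moved the median of all rows in that comparison to -0.59.

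Ppp1r15a (GADD34), which ends the translational block, was higher in E(+)T(+) than in E(-)T(+) by 1.74 (1.59 to 1.89), whereas Ddit3 differed by 0.20 there. Of the 21 sensor and signalling genes, 3 were higher and 0 lower by 2-fold in the exercise effect without tumor, where 5.28% of all rows were higher. In the tumor effect without exercise 1 was higher, Eif2s1 (1.69), and 3 were lower, among them Creb3l1 (-1.65) and Wfs1 (-1.48), beside 20.6% and 25.7% of all rows. With exercise in tumor-bearing lung 5 of the 21 were higher and 0 lower, where 24.3% of all rows were higher. In the tumor effect with exercise 4 were higher and 4 lower, beside 14.9% and 13.0% of all rows, the latter led by Nfe2l2 (-1.66) and Creb3l1 (-1.13).

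Heat shock genes outside the ER were read beside the ER genes. The list holds 8 genes of the cytosol and nucleus and the mitochondrial chaperonin genes Hspd1 and Hspe1. All 10 of that list were higher in the exercise effect without tumor, 9 of them by 2-fold, where 5.28% of all rows were, with a median of 1.75 against 0.64 for the ER genes. In the tumor effect with exercise 9 were lower, 8 of them by 2-fold, where 13.0% of all rows were, with a median of -1.73. Their summed normalized counts were 19593, 75276, 20405 and 19432. E(+)T(-) was thus the high library for both lists, and the difference in size between them was not tested.

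**Figure D4:**
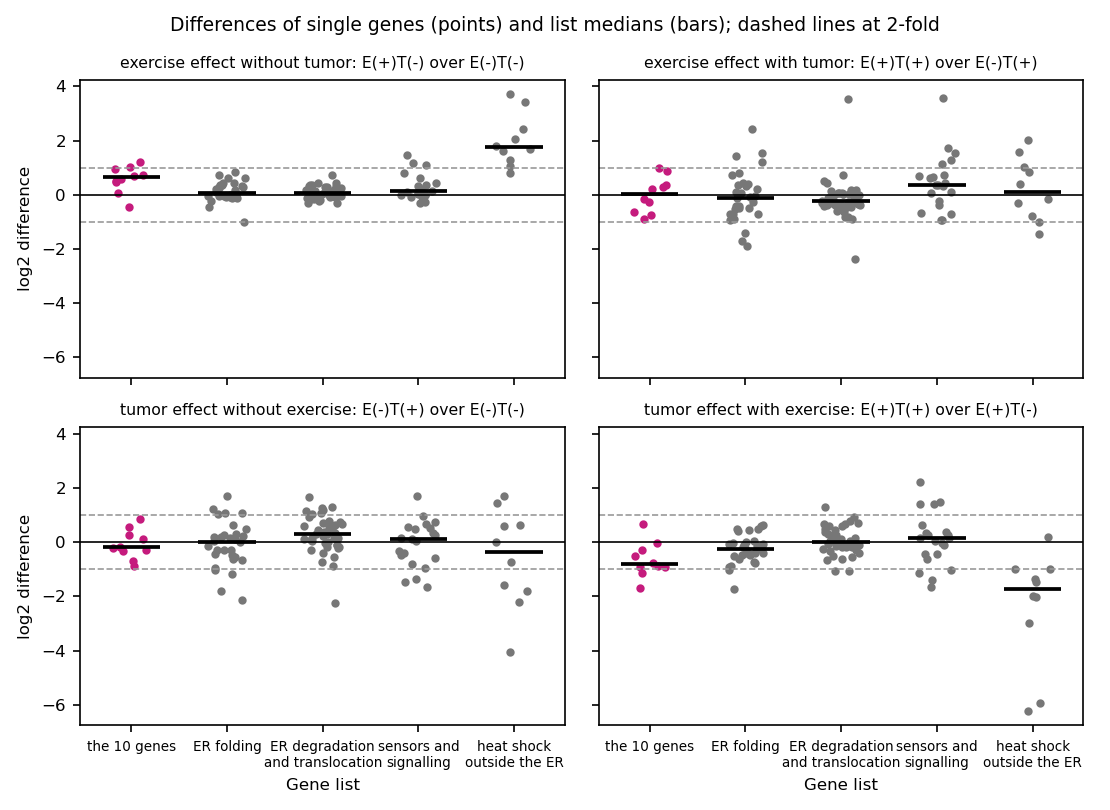
Log2 differences of single genes past the filter (points) and the median of each list (black bars) in the 4 comparisons, with dashed lines at 2-fold. In the exercise effect without tumor the medians are 0.64 for the 10 genes, 0.07 for ER folding, 0.07 for ER degradation and translocation, 0.13 for sensors and signalling and 1.75 for heat shock genes outside the ER.

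Likeness of pattern was measured as the root mean square distance between log2 values over the 4 libraries, each gene centred on its own mean. The 10 genes lay 0.11 (Calr) to 0.48 (Herpud1) from their own mean profile, so that Calr was the most typical and Herpud1 the least. Among 11216 rows whose mean normalized count reached 50, those of other genes nearest to that profile were Tnip2 (0.02), Akap11 (0.04), 9930021J03Rik (0.04), Prpf38b (0.05) and Ptges3 (0.05). For Hspa5 alone they were Ccdc25 (0.03), Gss (0.05), Farsb (0.06), Cwc27 (0.08) and Pomp (0.10). Over 4 libraries and so many rows such distances describe likeness alone.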

How the data were processed

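Lung RNA was read with QuantSeq 3' mRNA-Seq, in which a read marks a transcript end. The authors aligned reads with Bowtie2, counted them with bedtools coverage and normalized counts with the quantile method of edgeR. The submitters' processing notes name the build mm10, and versions, annotation and use of strand are not given in the sources used here. The deposited values are log2(normalized read count + 1), made by the authors, 1 per gene row.

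Whole reads were recovered from these log2 values by fitting relative library sizes and 1 dispersion (0.372) of a negative binomial quantile adjustment. Recovered reads returned 100% of the values within 0.001 on the log2 scale and 99.2% to all 3 decimals. In abundant rows several whole counts can give the same value at 3 decimals, so reads given for such genes are approximate. The method was tested on simulated data. Python 3.11.15 with numpy 2.4.6 and scipy 1.17.1 was used.

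Comparisons were differences of the deposited values between 2 libraries. No test was run, since each group has 1 library. Intervals are 95% exact (Clopper-Pearson) intervals of read ratios. Those of the difference between exercise effects are normal, from read counts. All cover counting error only, since 1 library per group gives no replicate error. Reads without molecular identifiers are not independent molecules, so the intervals may be too narrow even for counting error. Rows needed a mean normalized count of at least 4. Other scalings, a pseudocount of 4, other filters and a limit of 1.5-fold were tried.

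The genes, lists and motifs were chosen with earlier results of these data known. Named were the 10 genes. Of each ER list, the 2 largest differences in each direction past 2-fold per comparison were eligible where the mean normalized count reached 50. Also named were Ern1, Eif2ak3, Atf6, Atf4, Atf3 and the 5 nearest profiles. The marker lists covered alveolar epithelium, club cells, endothelium, fibroblasts, plasma cells, T cells, neutrophils, erythroid cells and dividing cells. A further marker list is not reported here.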

Additional observations from a re-analysis of the deposited data

Results flagged for a closer look

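The genes below drew attention because exercise went with opposite directions in lung labelled T(-) and T(+), each beyond counting error. The difference of the exercise effects (with tumor minus without) was -1.12 for Hspa5, -1.49 for Hsp90b1, -1.0 for Calr, -1.33 for Pdia4 and -1.2 for Pdia6, all higher with exercise in lung labelled T(-) and lower in tumor-bearing lung. It was 0.82 for Xbp1, which was lower and then higher, but lower in both (-0.24 with tumor) under library totals alone. With 1 library per group none of these differences was tested. Rows higher without tumor and lower with tumor, at any size, made up 24.9% of all rows past the filter.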

How the results depend on the processing

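The pseudocount of 4 and median-of-ratios size factors left the number of the 10 genes past 2-fold as reported in all 4 comparisons. Library totals alone gave 1 gene in the exercise effect without tumor, with Ddit3 lost, 3 in the exercise effect with tumor and 6 in the tumor effect with exercise, beside 10.1%, 51.8% and 33.7% of all rows past 2-fold under that scaling. Totals without the hemoglobin genes gave 1 in the exercise effect without tumor, again without Ddit3, and 4 in the tumor effect with exercise, beside 9.99% and 28.7% of all rows. These follow from shifts of all rows: under library totals alone the median of all rows was -0.59 (exercise effect with tumor) and -0.41 (tumor effect with exercise). At a limit of 1.5-fold the counts were 6 in the exercise effect without tumor, 3 in the tumor effect without exercise, 5 in the exercise effect with tumor and 7 in the tumor effect with exercise, beside 22.5%, 65.3%, 61.9% and 48.8% of all rows. Genes with a lower exercise effect with tumor numbered 8 under each alternative, beside 49.3% to 50.7% of all rows, except under library totals alone, where 64.0% of all rows were lower. Those at -1 or beyond numbered 4, but 6 under library totals alone (33.2% of all rows) and 5 under median-of-ratios size factors (19.9%). E(+)T(-) was highest for 8 genes under each alternative but library totals alone (5). Over rows whose mean normalized count reached 100, 2.13% of rows passed 2-fold in the exercise effect without tumor and 17.9% in the tumor effect with exercise. No paired analysis was possible because each group has 1 library, which also means that no library could be left out.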

Other observations

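Summed values of further cell type markers, some of them given in part above, are listed in the same order of libraries. The 3 club cell markers summed to 471001, 570212, 125983 and 559669 normalized counts, and the 4 endothelial markers to 11915, 13492, 1753 and 14524. The 7 neutrophil markers found summed to 3696, 11205, 10047 and 183589, with Elane at 0 reads in both libraries labelled T(-). The 8 erythroid symbols summed to 1589497, 1667861, 146916 and 4930611. The 6 cell division markers summed to 310.3, 655, 9728 and 3247. The 3 T cell markers summed to 317, 289, 47.3 and 317, with Cd3g at 0 reads in E(-)T(+). Their part in the levels of the ER genes was not tested.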
